A study of Mus musculus with 12 samples.

Results

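The DEAD and DEAH box RNA helicases of mouse oocytes are described here in poly(A) RNA of oocytes with and without MTR4. The set was defined by name, as all gene symbols that begin with Ddx or Dhx and a number, leaving out Ddx4 and Ddx6. This set was chosen with earlier results of these data known. It holds 52 of the 23235 symbols measured, 36 Ddx and 16 Dhx genes, and the question was whether the level of any other RNA helicase is higher when MTR4 is lost. Of the 52 members, 45 had a mean of at least 1 FPKM (fragments per kilobase of transcript, scaled to the mapped fragments of a library) over the 4 groups. The other 7 were Ddx3y, Ddx23, Ddx26b, Ddx43, Ddx60, Dhx37 and Dhx58. Membership rests on the name, and no protein sequence was checked. Ddx11 encodes a DNA helicase of another family, and Ddx26b, now Ints6l, encodes a protein related to an Integrator subunit. Ddx58 and Dhx58 are usually placed among the RIG-I-like helicases and Ddx60 among the Ski2-like ones, despite their names.

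The groups were wild-type (WT) and Mtr4-null oocytes taken from ovaries at day 14, labelled as growing oocytes, and at day 21, labelled as germinal vesicle oocytes. The labels list 12 libraries, 3 per group, whereas the design text speaks of duplicates, so the number of libraries behind each mean is uncertain. Each library was made from 10 oocytes, prepared by the Smart-seq2 method from polyadenylated RNA. The Mtr4 allele, any Cre driver and the number of animals are not given in the sources used here. The table used has 1 value per gene and group, the mean made by the authors, so no value below has a replicate error and no test was possible. Differences are given on the log2(FPKM + 1) scale, for the 11913 genes with a mean of at least 1 FPKM, and are counted as higher or lower when they reach 2-fold on that scale, a rule of size alone.

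DEAD and DEAH box proteins are ATPases named after the amino acids of a shared motif. They unwind short RNA duplexes or strip proteins from RNA at nearly every step of RNA metabolism, from transcription and splicing to export, ribosome assembly and translation. Most are targeted to their substrates by cofactors, such as G-patch proteins for several DEAH box enzymes. MTR4 belongs to a neighbouring helicase family and threads nuclear RNA into the RNA exosome. A growing oocyte stores the RNA and ribosomes on which the early embryo draws, so it uses many of these enzymes.

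Pairs of FPKM values give WT first and Mtr4-null second throughout. Skiv2l2, the older symbol of the gene for MTR4, stood at 27.6 and 1.57 FPKM at day 14, and at 26.3 and 3.86 FPKM at day 21. The 10 oocyte markers summed to between 12398 and 20367 FPKM in the 4 groups. The 12 granulosa markers summed to between 26.1 and 38.8 FPKM, with 7 of them under 1 FPKM in each group, and the 15 theca, stromal, endothelial and blood markers to between 5.06 and 23.96 FPKM. Single markers of these lists differed in both directions at day 21. The granulosa marker Cyp19a1 stood at 25.3 and 1.48 FPKM, and the endothelial marker Pecam1 at 20.7 and 2.13 FPKM. The granulosa markers Inha and Gja1 went the other way, at 1.72 and 10.9 FPKM and at 0.444 and 2.34 FPKM. Their part in the differences below was not tested. In bulk RNA, fewer cells of a type and less RNA per cell cannot be told apart. The Mtr4-null column of day 21 in particular could rest on fewer than 3 libraries.

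No DEAD or DEAH box gene was 2-fold higher or lower without MTR4 at day 14, and at day 21 only 3 were higher, Dhx9, Ddx20 and Ddx39, against 13 lower. Of all genes, 8.1% were higher and 1.55% lower at day 14, and 20.2% were higher and 25.7% lower at day 21. The members' shares at day 21 were 6.67% higher and 28.9% lower, so the share lower was near that of all genes and the share higher was below it. The median log2 difference of the 45 members was 0.19 at day 14, beside 0.05 for all genes, and -0.40 at day 21, beside -0.27. With the columns rescaled by median of ratios, which moves the median of all genes at day 21 from -0.27 to 0.00, 6 members were higher and 10 lower at day 21. In that setting 24.3% of all genes were higher and 18.1% lower.

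Promoters are shown for sequence context, those of Dhx9 and Ddx20, counted as higher at day 21, and those of Dhx29 and Ddx25, counted as lower. Each is the 250 bases before the start of the RefSeq gene on the GRCm38.p6 assembly, read 5′ to 3′ on the strand of the gene. Capitals mark matches, on either strand, to any of 5 motifs. The CCAAT box was searched by its own letters, the GC box as GGGCGG and the TATA box as TATAAA. The E-box was searched as CACGTG and the ETS motif as CCGGAAGT.
Dhx9 (chr1:153487661-153487910, minus strand): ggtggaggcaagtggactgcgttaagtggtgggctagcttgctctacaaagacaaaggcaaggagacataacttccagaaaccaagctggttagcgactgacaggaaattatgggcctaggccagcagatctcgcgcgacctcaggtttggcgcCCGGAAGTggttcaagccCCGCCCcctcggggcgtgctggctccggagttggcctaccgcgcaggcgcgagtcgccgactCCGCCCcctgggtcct
Ddx20 (chr3:105687572-105687821, minus strand): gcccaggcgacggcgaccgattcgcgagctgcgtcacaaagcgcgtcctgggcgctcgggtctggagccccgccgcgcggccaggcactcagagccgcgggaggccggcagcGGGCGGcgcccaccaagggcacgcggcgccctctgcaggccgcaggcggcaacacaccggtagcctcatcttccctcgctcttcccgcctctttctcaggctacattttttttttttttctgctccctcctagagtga
Dhx29 (chr13:112927430-112927679, plus strand): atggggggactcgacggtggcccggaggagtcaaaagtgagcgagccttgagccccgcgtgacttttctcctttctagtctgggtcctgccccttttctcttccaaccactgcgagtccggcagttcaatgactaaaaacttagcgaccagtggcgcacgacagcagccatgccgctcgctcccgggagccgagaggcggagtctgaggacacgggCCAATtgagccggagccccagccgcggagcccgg
Ddx25 (chr9:35558471-35558720, minus strand): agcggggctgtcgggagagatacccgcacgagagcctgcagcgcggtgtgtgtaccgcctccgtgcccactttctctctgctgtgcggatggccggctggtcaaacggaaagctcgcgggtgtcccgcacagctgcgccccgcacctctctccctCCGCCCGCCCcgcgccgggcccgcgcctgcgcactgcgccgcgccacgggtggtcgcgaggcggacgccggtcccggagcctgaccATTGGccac

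The Dhx9 promoter held GC boxes and an ETS motif, and the Ddx20 promoter a GC box. The Dhx29 promoter held a CCAAT box, and the Ddx25 promoter a CCAAT box and a pair of overlapping GC boxes. Promoter sequences were found for 47 of the 52 members. A GC box was present in 29 of them, or 61.7%, compared with 57.4% of 8394 promoters of genes that passed the filter on FPKM and 32.9% of all 27025 promoters. A CCAAT box was present in 44.7% of member promoters, 37.6% of those that passed and 34.5% of all. A TATA box was found in 1 member promoter, that of Ddx58, or 2.13%, beside 6.64% and 13.0%. The ETS motif was present in 5 member promoters (Ddx17, Ddx50, Dhx9, Dhx30 and Dhx37), or 10.6%, beside 6.42% and 2.93%, and the E-box in 3 (Dhx33, Dhx35 and Dhx40), or 6.38%, beside 8.58% and 6.05%. These matches describe letters only, and binding was not measured.

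**Figure D1:**
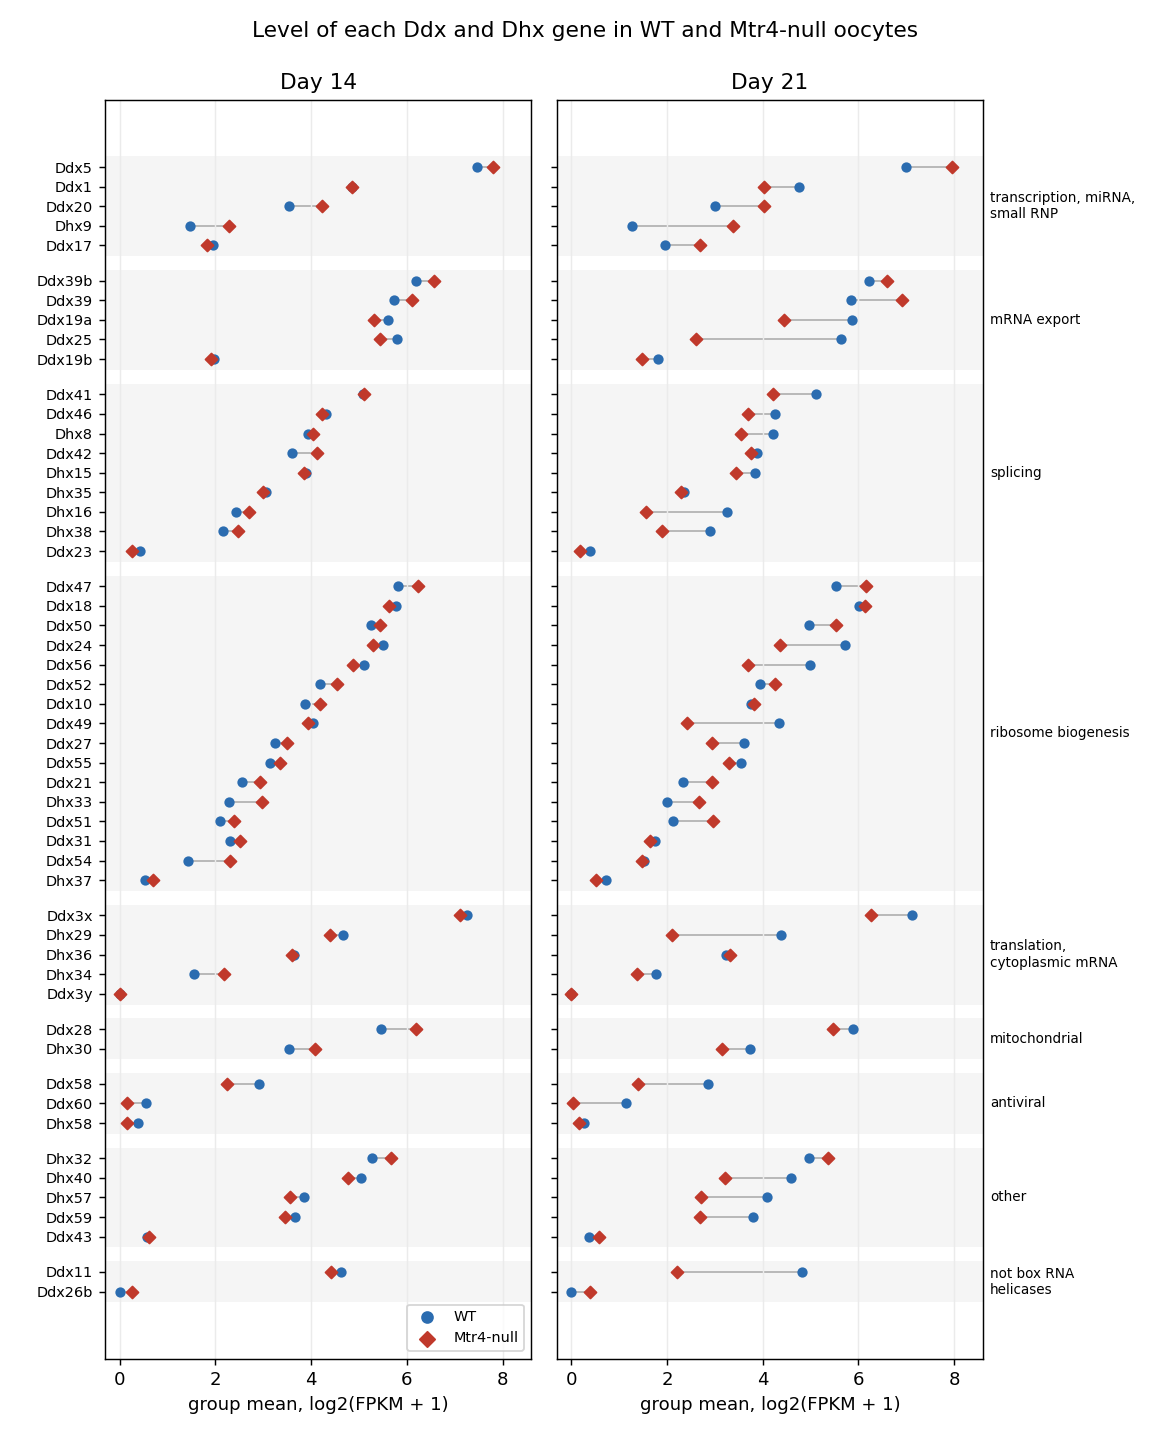
Level of the 52 Ddx and Dhx genes as log2(FPKM + 1) of the group mean (x axis) by gene and role (y axis), at day 14 (left) and day 21 (right), with circles for WT and diamonds for Mtr4-null oocytes. At day 14 the pairs lie close together, and at day 21 they part, with Dhx9 furthest to the right of its WT value (1.42 to 9.36 FPKM) and Ddx25 furthest to the left (48.5 to 5.13 FPKM).

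In WT oocytes the most abundant members were Ddx5, Ddx3x, Ddx39b, Ddx18 and Ddx39, which together made up 41.1% of the summed member FPKM at day 14 and 38.8% at day 21. All members summed to 1228 and 1348 FPKM at day 14, which is 0.205% and 0.226% of all FPKM. At day 21 they summed to 1181 and 1103 FPKM, or 0.196% and 0.170%. The totals differed less than the make-up: the share of the 5 most abundant members was 54.9% in Mtr4-null oocytes at day 21.

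Helicases of transcription, microRNA processing and small RNP assembly held 2 of the 3 higher members. That is 2 of the 5 genes with this role, beside 20.2% of all genes higher at day 21. Roles were assigned with earlier results of these data known, so counts and medians by role describe the grouping and are no independent result. Dhx9, which encodes RNA helicase A, an enzyme of structured and double-stranded RNA in the nucleus, stood at 1.77 and 3.87 FPKM at day 14, and at 1.42 and 9.36 FPKM at day 21. Its FPKM was 2.18-fold higher at day 14 and 6.61-fold higher at day 21, with log2 differences of 0.81 and 2.101. The value of day 21 was the highest of the 4 groups, and it placed Dhx9 at the 90.6th percentile of all genes. The count of Dhx9 depended in part on how low levels were handled. With a pseudocount of 0.1 it and Ddx54 were higher at day 14, beside 11.8% of genes higher and 2.8% lower. Dhx9 did not reach a mean of 5 FPKM, and neither did Ddx58 and Dhx38 among the members lower at day 21.

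Ddx20 encodes Gemin3 of the SMN complex, which loads Sm proteins onto small nuclear RNAs. It stood at 10.7 and 17.8 FPKM at day 14 and at 7.03 and 15.3 FPKM at day 21, with log2 differences of 0.69 and 1.03. Both Mtr4-null values lay above both WT values. Ddx5, a coactivator of transcription that also takes part in microRNA processing, was the most abundant member and lay just under the 2-fold rule at day 21, with a log2 difference of 0.95. It stood at 175 and 221 FPKM at day 14 and at 127 and 246 FPKM at day 21. Of its 50-base words 20.7% also occur in other annotated genes, mostly the gene model Gm12183, so reads may have been shared. Its close relative Ddx17 stood at 2.88 and 2.54 FPKM at day 14 and at 2.90 and 5.48 FPKM at day 21. Ddx1, a subunit of the tRNA ligase complex, went the other way at day 21, with 26.2 and 15.2 FPKM and a log2 difference of -0.75. The median of these 5 genes was 0.33 at day 14 and 0.95 at day 21. With median-of-ratios scaling 4 of the 5 were counted as higher at the later age, beside 24.3% of all genes.

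Helicases of mRNA export differed in direction within their group at day 21. Of the 5, 1 was higher (20%) and 2 were lower (40%), beside 20.2% and 25.7% of all genes. Ddx39, which encodes URH49, an export helicase paralogous to UAP56, stood at 52.1 and 68.4 FPKM at day 14 and at 56.5 and 119 FPKM at day 21, with log2 differences of 0.39 and 1.07. Of its 50-base words 15.7% also occur in other genes, mostly Adgre5, so reads may have been shared. Adgre5, measured under the older symbol Cd97, had a highest group mean of 0.0447 FPKM. Its paralog Ddx39b, which encodes UAP56 of the TREX complex, stood at 72.3 and 93.8 FPKM at day 14 and at 74.1 and 95.7 FPKM at day 21. The ratio of Ddx39 to Ddx39b FPKM, which no rescaling of a whole column can move, was 0.721 and 0.762 in WT at days 14 and 21, 0.729 in Mtr4-null oocytes at day 14 and 1.25 at day 21. The order of the pair was thus turned in Mtr4-null oocytes of day 21.

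Ddx19a, which encodes the DBP5-type helicase that removes export factors from mRNA at the nuclear pore, stood at 47.4 and 38.8 FPKM at day 14 and at 57.3 and 20.7 FPKM at day 21. The log2 difference was -0.28 at day 14 and -1.42 at day 21. Ddx25, a helicase best known from male germ cells, where mouse spermatid development requires it, had the largest difference of all members. It stood at 54.6 and 42.3 FPKM at day 14 and at 48.5 and 5.13 FPKM at day 21, a 9.46-fold lower FPKM. Its log2 difference of -3.01 at day 21 lay at the 0.781st percentile of all genes. Ddx19b, the second DBP5-type gene, was low throughout, between 1.77 and 2.91 FPKM. Of the 50-base words of the Ddx19a transcripts, 33.3% also occur in Ddx19b, so reads of the pair may have been shared.

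**Figure D2:**
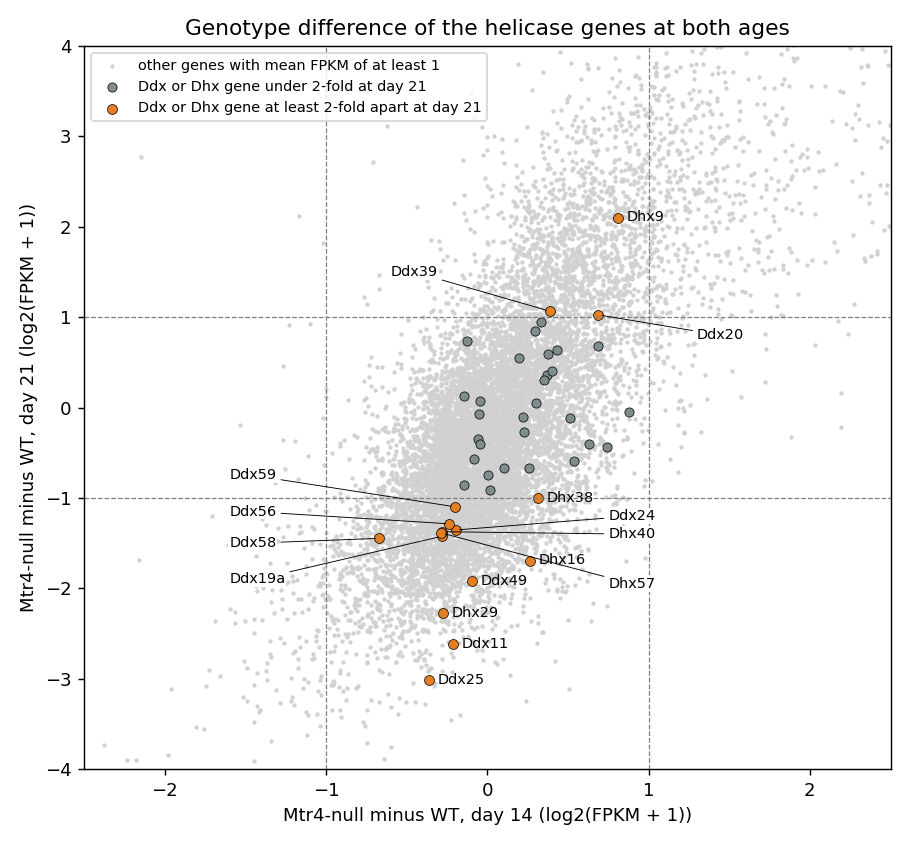
Difference between Mtr4-null and WT oocytes at day 14 (x axis) and day 21 (y axis), both on the log2(FPKM + 1) scale, for the 45 Ddx and Dhx genes that passed the filter (large points) and other genes (small grey points). Dashed lines mark 2-fold, and 426 genes lie outside the axes. No helicase gene lies outside the dashed lines along the x axis, whereas along the y axis 3 lie above and 13 below them.

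Among splicing helicases none was higher. Of the 8 that passed the filter 2 were lower at day 21 (25%), beside 25.7% of all genes. All 8 were below 0 at day 21 as deposited, but the median of all genes was itself -0.27, and 2 of the 8 lay above it. Ddx42 and Dhx35 were above 0 under median-of-ratios scaling, and Ddx42 was above 0 under quantile normalization. Dhx16 and Dhx38 encode the counterparts of yeast Prp2 and Prp16, which remodel the spliceosome around its catalytic steps. Dhx16 stood at 4.43 and 5.51 FPKM at day 14 and at 8.50 and 1.94 FPKM at day 21. Dhx38 stood at 3.48 and 4.57 FPKM at day 14 and at 6.49 and 2.73 FPKM at day 21, a log2 difference of -1.01 that lies next to the 2-fold line. Both were the members highest in WT at day 21 relative to WT at day 14, with log2 differences of 0.81 and 0.74, whereas in Mtr4-null oocytes they were lower at day 21 than at day 14. Ddx41, the most abundant splicing member, stood at 32.8 and 33.2 FPKM at day 14 and at 33.8 and 17.5 FPKM at day 21, just outside the rule at -0.91. The log2 differences of Dhx8, Dhx15, Dhx35, Ddx42 and Ddx46 lay between -0.67 and -0.07 at day 21. Ddx23, which encodes the counterpart of yeast Prp28, lay between 0.142 and 0.345 FPKM, too low to be counted.

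Ribosome biogenesis had the most members, 15 that passed the filter, and they divided. At day 21, 8 were above 0 and 7 below, or 11 and 4 under median-of-ratios scaling. On the deposited scale 11 of the 15 lay above the median of all genes at day 21, which was -0.27. The 3 counted as lower (20% of the 15, beside 25.7% of all genes) were Ddx24, Ddx49 and Ddx56, helicases of ribosomal subunit assembly. Ddx49 stood at 15.4 and 14.4 FPKM at day 14 and at 19.3 and 4.37 FPKM at day 21, a log2 difference of -1.92. Of its exonic bases 29.8% overlap Homer3 on the other strand, whose highest group mean was 0.0479 FPKM, and reads of the pair may have been shared. Ddx24 stood at 44.1 and 38.4 FPKM at day 14 and at 51.9 and 19.7 FPKM at day 21, and Ddx56 at 33.5 and 28.3 FPKM and at 30.6 and 11.9 FPKM.

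No ribosome biogenesis helicase was higher by the rule on the deposited scale. The nearest was Ddx51, at 3.25 and 4.23 FPKM at day 14 and at 3.34 and 6.84 FPKM at day 21. Its log2 difference at day 21 was 0.85, and it was counted as higher under median-of-ratios scaling and with a pseudocount of 0.1. With that pseudocount 4 members were higher and 13 lower at day 21, beside 22.8% and 29.8% of genes. Ddx47, the most abundant of the group, stood at 55.2 and 74.6 FPKM at day 14 and at 45.4 and 70.9 FPKM at day 21. The paralogs Ddx21 and Ddx50, which encode nucleolar helicases, had log2 differences of 0.37 and 0.19 at day 14 and 0.59 and 0.55 at day 21, with a Ddx21 to Ddx50 ratio between 0.132 and 0.156 in all groups. Ddx54 had the largest difference of any member at day 14, from 1.68 to 3.93 FPKM with a log2 difference of 0.88, and stood at 1.88 and 1.79 FPKM at day 21. Ddx18 stood at 53.6 and 48.3 FPKM at day 14 and at 63.3 and 69.3 FPKM at day 21, but 61.4% of its 50-base words also occur in other annotated genes, mostly the gene model Gm16433, so its values are uncertain.

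Helicases of translation and cytoplasmic mRNA were led by Ddx3x, a translation initiation helicase. It stood at 153 and 138 FPKM at day 14 and at 137 and 75.7 FPKM at day 21, a log2 difference of -0.85 at day 21. Its Y-linked copy Ddx3y was listed at 0 in all 4 groups. The ratio of Ddx5 to Ddx3x FPKM, the foremost pair by level, was 1.14 and 0.923 in WT at days 14 and 21, 1.60 in Mtr4-null oocytes at day 14 and 3.25 at day 21. Dhx29, which helps the small ribosomal subunit scan structured leader sequences, stood at 24.3 and 19.9 FPKM at day 14 and at 19.8 and 3.30 FPKM at day 21. Its FPKM was 6.004-fold lower at day 21, with a log2 difference of -2.28 at the 2.96th percentile of all genes. Dhx36, which resolves G-quadruplexes, stood between 8.47 and 11.5 FPKM in all groups. Dhx34, a factor of nonsense-mediated decay, had log2 differences of 0.63 at day 14 and -0.40 at day 21.

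The mitochondrial pair, Ddx28 and Dhx30, which act in the assembly of the mitochondrial ribosome, also changed sign between the ages. Ddx28 stood at 42.9 and 72.4 FPKM at day 14 and at 58.6 and 43.1 FPKM at day 21. Dhx30 stood at 10.7 and 15.97 FPKM at day 14 and at 12.3 and 7.82 FPKM at day 21. Neither reached 2-fold at either age.

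Among antiviral sensors only Ddx58, the gene for RIG-I, passed the filter. It stood at 6.57 and 3.75 FPKM at day 14, the lowest log2 difference of any member that passed at that age (-0.67), and at 6.20 and 1.64 FPKM at day 21 (-1.45). Ddx60, an antiviral helicase linked to RIG-I signalling, was at 0.463 and 0.116 FPKM at day 14 and at 1.22 and 0.0214 FPKM at day 21, and Dhx58, the gene for LGP2, lay between 0.109 and 0.297 FPKM. Both are under the filter.

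Of the remaining members, Dhx40, Dhx57 and Ddx59 were lower at day 21, with log2 differences of -1.37, -1.39 and -1.10 after -0.28, -0.28 and -0.20 at day 14. Dhx40, the most abundant of the 3, stood at 32.0 and 26.2 FPKM at day 14 and at 23.0 and 8.25 FPKM at day 21. Dhx57 stood at 13.3 and 10.8 FPKM and then at 16.1 and 5.53 FPKM, and Ddx59 at 11.6 and 9.99 FPKM and then at 12.9 and 5.50 FPKM. In all 3 the Mtr4-null value of day 21 was the lowest of the 4. Dhx32 stood at 37.6 and 49.8 FPKM at day 14 and at 30.4 and 40.5 FPKM at day 21, a log2 difference of 0.40 at both ages. The DNA helicase gene Ddx11, which acts in sister chromatid cohesion, stood at 23.8 and 20.4 FPKM at day 14 and at 27.2 and 3.60 FPKM at day 21. Its log2 difference of -2.62 was the second lowest of the set. Without Ddx11 and Ddx26b, the day 21 counts were 3 and 12. Of the members under the filter not yet given, Ddx43 lay between 0.297 and 0.520 FPKM, Dhx37, a ribosome biogenesis helicase, between 0.440 and 0.648 FPKM, and Ddx26b between 0 and 0.309 FPKM.

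**Figure D3:**
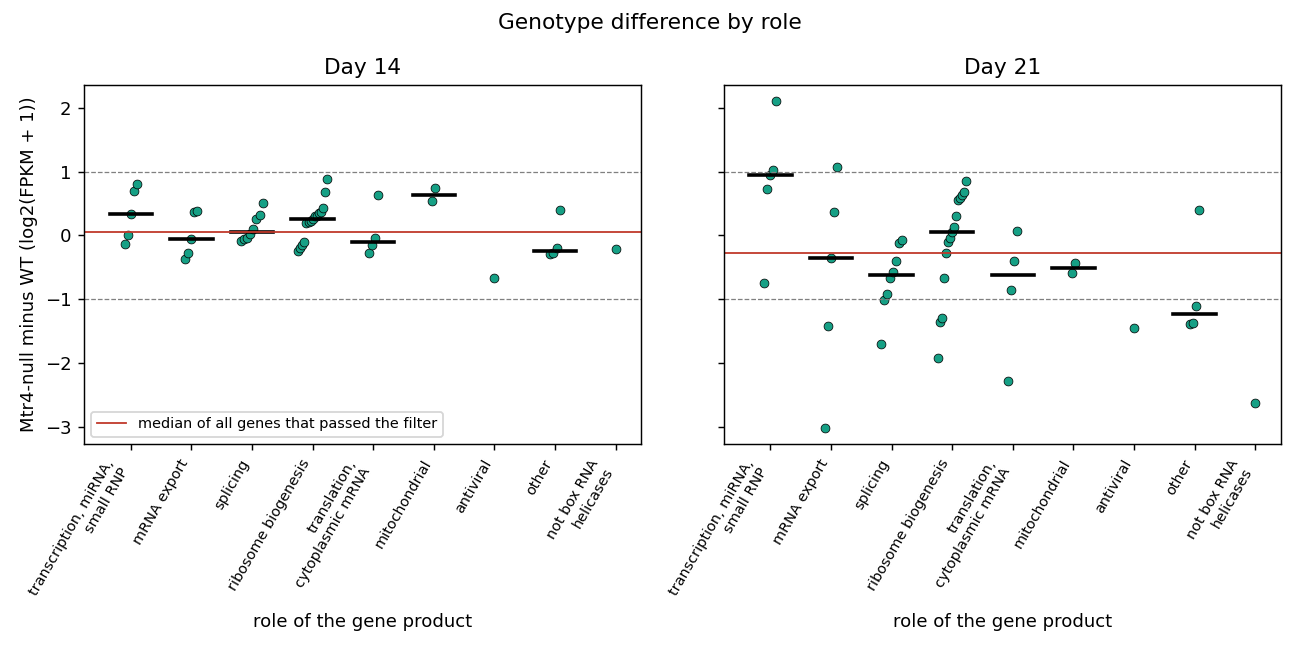
Difference between Mtr4-null and WT oocytes on the log2(FPKM + 1) scale (y axis) by role of the gene product (x axis), at day 14 (left) and day 21 (right), each point 1 gene that passed the filter and each black bar the median of a role with more than 1 gene. The red line is the median of all genes, 0.05 at day 14 and -0.27 at day 21. The transcription, microRNA and small RNP group has the highest median at day 21, 0.95, in roles assigned with earlier results of these data known. Splicing genes all lie below 0 at that age on the deposited scale, and 2 of the 8 lie above the red line.

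Between the ages the members differed less in WT than in Mtr4-null oocytes by count. In WT oocytes no member was 2-fold higher or lower at day 21 than at day 14, where 2.02% of all genes were higher and 3.32% lower. The WT log2 differences ran from -0.69 for Dhx35, at 7.28 FPKM at day 14 and 4.13 FPKM at day 21, to 0.81 for Dhx16. In Mtr4-null oocytes Dhx9 was higher at day 21, and Ddx11, Ddx25, Ddx49, Ddx56, Dhx16, Dhx29 and Dhx40 were lower, beside 9.08% and 18.6% of all genes. These age comparisons share libraries with the genotype comparisons. The genotype difference was at least 2-fold more positive at day 21 than at day 14 for 1 member, Dhx9, and more negative for 14, which include Ddx28, Dhx30 and Dhx34 beside members lower at day 21. Of all genes 13.6% and 22.4% did so. Under median-of-ratios scaling the counts were 4 and 5, beside 19.8% and 12.4% of genes, and under quantile normalization 2 and 6, beside 16.4% and 17.2%. In 29 of 45 members the genotype difference had the same sign at both ages, and in 35 it was larger in size at day 21. The shares of all genes that did so were not counted, so neither count can be read as particular to the members. The median size of the log2 difference was 0.28 at day 14 and 0.68 at day 21 for the members, and 0.30 and 0.91 for all genes.

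Exon number varied with the day 21 difference among members much as it did among all genes. The members had a median of 15 exons, compared with 9 for the 9974 measured genes with a matched annotation. Spearman's rho between exon number and the log2 difference of day 21 was -0.24 over the 45 members and -0.25 over those genes, where points share libraries and genes are no independent replicates. The median difference was 0.30 in the 23 members with at most 15 exons and -0.67 in the 22 with more. Dhx9, with 28 exons the most of the 45, went against that order. The part of exon number in these differences was not tested.

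Other helicases and cofactors of the family were counted by the same rule, to be read against the 20.2% of all genes that were higher and the 25.7% that were lower at day 21. At day 14 the shares of all genes were 8.1% and 1.55%. Under median-of-ratios scaling 24.3% of all genes were higher and 18.1% lower at day 21. Of 23 measured genes listed as RNA helicases outside the Ddx and Dhx names, MTR4 included, 1 was higher and 1 lower at day 14. These were D1Pas1 and Skiv2l2 itself. The list also holds Dna2, which encodes a DNA helicase and was counted as lower at day 21. The day 21 counts were 3 higher (13.0%) and 8 lower (34.8%), around a median log2 difference of -0.68, and 3 and 3 under median-of-ratios scaling. The higher ones were Dqx1, at 0.211 and 10.8 FPKM, D1Pas1, a retrogene of the DDX3 family known from testis, at 0.266 and 4.36 FPKM, and the translation initiation helicase gene Eif4a2, at 99.2 and 227 FPKM. Dqx1 and D1Pas1 were under 1 FPKM in WT at both ages and passed the filter only through their Mtr4-null values, so their being higher follows from the filter. Eif4a2 and its paralogs were singled out after their values were seen. Eif4a1 stood at 442 and 571 FPKM, and Eif4a3, which was counted as lower, at 199 and 93.2 FPKM. Among the lower ones were Tdrd9, a piRNA pathway helicase, at 10.8 and 2.17 FPKM and Znfx1 at 12.5 and 3.58 FPKM.

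Of 42 cofactors of DEAD and DEAH box enzymes, only Pdcd4 was counted at day 14, as lower. Pdcd4 encodes an inhibitor of eIF4A and stood at 33.3 and 14.7 FPKM. The day 21 counts were 5 higher (11.9%) and 13 lower (31.0%), around a median log2 difference of -0.46, and 8 and 9 under median-of-ratios scaling. Nup214, the nuclear pore protein that binds DBP5, stood at 46.3 and 5.72 FPKM at day 21, and Pdcd4 at 27.6 and 3.78 FPKM. The G-patch protein genes Zgpat and Gpkow stood at 1.13 and 8.82 FPKM and at 3.59 and 18.1 FPKM. Further cofactors were chosen after their values were seen: Gle1, the activator of DBP5 in export, stood at 92.5 and 33.8 FPKM beside the lower Ddx19a, and Gemin4, a partner of Gemin3, at 1.498 and 7.43 FPKM beside the higher Ddx20. Smn1, the core subunit of the same complex, stood at 97.2 and 95.1 FPKM. Of 32 genes listed as DNA helicases, the day 21 counts were 3 higher (9.38%) and 10 lower (31.2%), around a median log2 difference of -0.62. Under median-of-ratios scaling they were 3 and 8. The list is broad: it also holds chromatin remodeler genes, of which Chd1 was counted as higher and Chd4 and Smarca4 as lower. The Ku genes Xrcc5 and Xrcc6, whose products bind DNA ends, are in it as well and were counted as lower. Brip1, a helicase of DNA crosslink repair, stood at 17.5 and 151 FPKM and was the only DNA helicase higher at day 14 as well, at 14.7 and 32.0 FPKM.

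**Figure D4:**
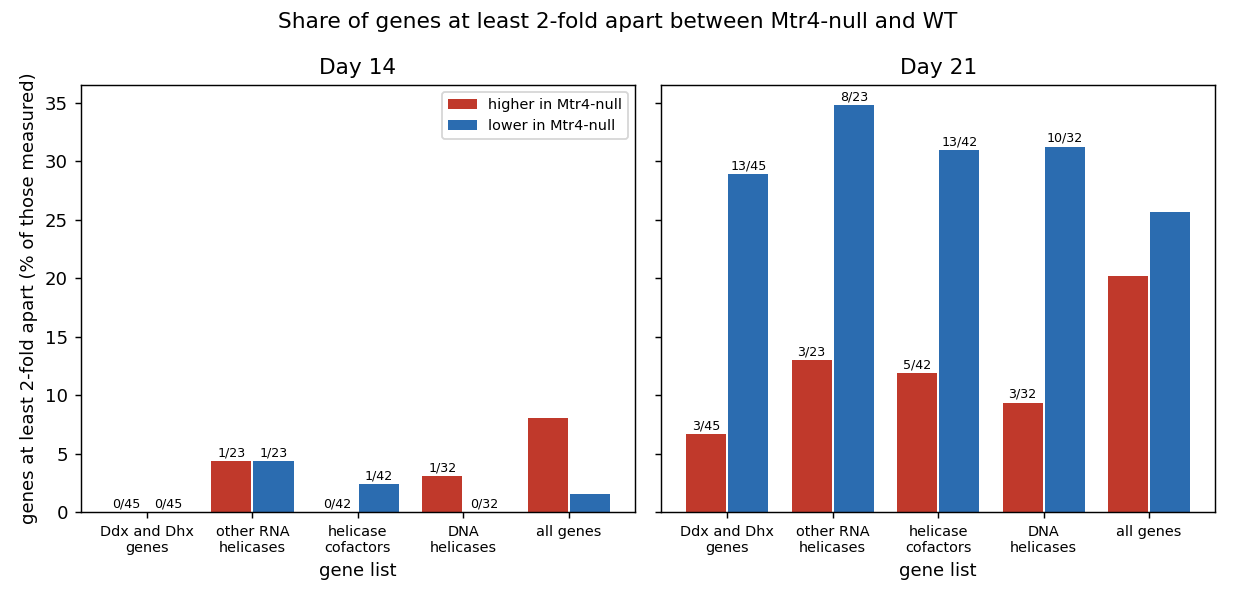
Share of measured genes at least 2-fold higher (red) or lower (blue) in Mtr4-null than in WT oocytes (y axis, percent) for the Ddx and Dhx genes, 3 other gene lists and all genes (x axis), at day 14 (left) and day 21 (right), with counts above the bars. Of the Ddx and Dhx genes none was counted at day 14, and at day 21 3 of 45 were higher and 13 of 45 lower.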

How the data were processed

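The deposited table holds FPKM values that the authors averaged into 1 column per group. The build mm9, Cufflinks 2.2.1 and TopHat2 2.1.1 are named, per the submitters' processing notes, without what each did. Means of 3 numbers often end in repeating 3s or 6s: 56.4% of WT values above 0 did so at day 14 and 55.4% at day 21, as did 57.4% of Mtr4-null values at day 14, but only 0.120% at day 21. Depth per library is unknown, and FPKM are relative to each library. The planned fallback applied: differences of log2(FPKM + 1) over the whole table, genes with a mean of at least 1 FPKM, and a 2-fold rule. Alternatives were a pseudocount of 0.1, no filter, a mean of at least 5 FPKM, at least 1 FPKM in the reference group alone, median-of-ratios scaling, quantile normalization and a 1.5-fold rule. The procedure was tested on simulated data, in which a small part of the genes changed in the Mtr4-null column of day 21, equally many up and down. That setting did not cover changes as broad or as uneven as those of day 21. Python 3.11.15, pandas 2.3.3, numpy 2.4.6 and scipy 1.17.1 were used.

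Members, roles and lists were chosen with earlier results of these data known. All members could be named. Values in every group were given for members that differed 2-fold, for the most abundant, and for the most abundant and most different of a role. Of other lists, up to 4 genes that differed 2-fold were to be named, largest first. More were named in the text, and some DNA helicase genes with larger differences, such as Mcm2 (-1.99 at day 21), were not. Exon numbers, overlaps and transcripts came from GENCODE vM21 (GRCm38), in which all 52 members were found, and 21 overlap another gene there, 13 on the opposite strand. Smart-seq2 does not keep the strand, so reads there cannot be assigned to a strand. Words of 50 bases were compared on both strands between transcripts of a member and of all other genes, and 8 of the 45 members shared over 10% of theirs. Promoters came from the RefSeq table of GRCm38.p6, and no coordinates come from the deposited file.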

Additional observations from a re-analysis of the deposited data

How the results depend on the processing

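Every value rests on 1 mean per group, so leaving out a library was not run. No paired analysis was possible because the columns are group means and carry no replicate numbers. Without the filter, with at least 1 FPKM in the reference group alone, and under quantile normalization, the day 21 counts of higher and lower members stayed within 1.5 times. With a pseudocount of 0.1, 2 members, Ddx54 and Dhx9, were higher at day 14 (11.8% of all genes), and in the age comparison of Mtr4-null oocytes 2 were higher and 12 lower (11.1% and 24.1%). For the difference of the genotype differences 2 were then higher (16.3%). With a mean of at least 5 FPKM, the count higher was 0 in the age comparison of Mtr4-null oocytes (8.49% of all genes) and 0 for the difference of the genotype differences (12.7%), since Dhx9 does not reach that mean. Under median-of-ratios scaling, 6 members were higher at day 21 (24.3%), 3 were higher with age in Mtr4-null oocytes (15.2%), and 4 and 5 had a more positive and more negative genotype difference (19.8% and 12.4%). Of the 13 members lower at day 21, 10 remained, and Ddx56, Ddx59 and Dhx38 did not. The 6 higher members then included Ddx5, Ddx17 and Ddx51. Under quantile normalization 2 were higher with age in Mtr4-null oocytes (12.4%), 2 and 6 had a more positive and more negative genotype difference (16.4% and 17.2%), and the median difference of the members at day 14 turned from 0.19 to -0.040, beside a median of all genes of -0.09. By a 1.5-fold rule, 6 members were higher and 1 lower at day 14 (17.1% and 6.12% of all genes), and 9 were higher at day 21 (27.0%). By that rule 2 were higher and 1 lower with age in WT (8.38% and 11.04%), 4 and 21 in Mtr4-null oocytes (16.2% and 35.9%), and 4 and 23 had a more positive and more negative genotype difference (20.9% and 38.5%). No member that differed 2-fold changed its direction under any alternative run.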
